A study of Mus musculus with 11 samples.

Results

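The genes described here are 48 genes of the cell cycle and DNA replication, chosen by name from 27179 genes counted in mouse mammary epithelium. They comprise the D cyclins and their kinases (5 genes), the inhibitors of cyclin-dependent kinases (CDKs; 4), regulators of the G1 to S transition (6), replication licensing factors (9), enzymes and clamps of DNA synthesis (3), G2/M and mitotic genes (19) and late cell cycle transcription factors (2). Freshly sorted populations of Lin- cells from the mammary glands of wild type virgin female FVB/N mice, labelled 8 weeks old, were profiled by single-end RNA-seq, with 3 libraries each: CD24+CD29hi basal cells enriched for mammary stem cells (MaSC/basal), CD24+CD29loCD61+ cells enriched for luminal progenitors (LP) and CD24+CD29loCD61- cells enriched for mature luminal cells (ML). There was 1 library of mammospheres, which are non-adherent spheres grown here from CD24+CD29hi basal cells of the same strain, age and genotype label over 1 week of culture. The other cultured sample was 1 library of CommaDβ (CommaD-βGeo), an established Balb/c mammary epithelial line labelled wild type that originated from mid-pregnancy gland and was grown under maintenance conditions. The sort gates enrich for these cell types and do not purify them to single types, and CommaDβ is 1 line in 1 library.

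Progress through the cell cycle rests on waves of gene expression and protein destruction. D cyclins activate Cdk4 and Cdk6 in G1, which phosphorylate the retinoblastoma protein and release E2F transcription factors. The E2F factors then induce cyclin E, the MCM helicase and the enzymes of DNA synthesis. Mitotic genes come later, under the DREAM and MuvB complexes with B-Myb (Mybl2) and Foxm1, so that transcripts such as Mki67, Ccnb1 and Plk1 mark cells in S, G2 or M phase, while CDK inhibitors hold cells in G1 or keep them senescent. In the virgin gland, division occurs in both the basal and the luminal layer and varies with the oestrous cycle.

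Promoters of many mitotic genes are known to carry CHR and CCAAT elements, and those of many replication genes E2F sites, and the promoters are shown first for that reason. RefSeq promoters (GRCm38.p6, 250 bases before to 50 after the gene start) were held for 38 of the 48 genes, as 43 promoters. They were searched on both strands for the core of the cell cycle homology region (CHR, the element bound by DREAM and MuvB; TTTGAA, or TTCGAA, which reads the same on both strands), for the NF-Y box (CCAAT) and for 4 E2F words (TTTCGCGC, TTTGGCGC, TTCCCGCC and TTTCCCGC). Matches of different words may share bases, as E2F words on opposite strands do. A CHR core was present in 12 of the 15 G2/M and mitotic genes with a promoter (80.0%), against 21.7% of all 27025 genes in the promoter table and 16.4% of the genes tested for expression. A CCAAT box was present in 14 of the 15 (93.3%), against 41.1% of all genes. It was also present in 5 of the 7 licensing genes with a promoter (71.4%) and in 28 of the 38 genes with a promoter as a whole (73.7%). Both were present in 80.0% of the G2/M and mitotic genes and in 8.6% of all genes. E2F words showed the other distribution: they were found in 6 of the 7 licensing genes with a promoter (85.7%), against 1 of the 15 G2/M and mitotic genes (6.7%), 4.0% of all genes and 7.1% of the genes tested. None of the 3 DNA synthesis genes held a CHR core or an E2F word, and neither did the 1 late transcription factor with a promoter. None of the 3 genes with a promoter among the D cyclins and their kinases held a CHR core or an E2F word. Among 43 other mitotic genes outside the 48, 76.7% held a CHR core, 65.1% a CCAAT box and 58.1% both. Among 31 other replication genes, 45.2% held an E2F word. These are matches of letters in a fixed window, and no occupancy was measured here.

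Promoter stretches from 200 bases before to 30 bases from the gene start onward are given 5′ to 3′ on the strand of the gene, with the matches in capitals, for mitotic genes with CHR and CCAAT matches, then for licensing genes with E2F words, and finally for Cdk4, which held no match.
Cdk1, chr10:69352883-69353112, minus strand: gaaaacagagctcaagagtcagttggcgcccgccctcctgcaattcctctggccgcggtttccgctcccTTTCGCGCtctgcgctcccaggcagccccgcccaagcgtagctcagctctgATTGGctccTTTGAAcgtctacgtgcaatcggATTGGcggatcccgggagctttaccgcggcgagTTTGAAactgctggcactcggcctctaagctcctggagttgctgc
Ccnb2, chr9:70421525-70421754, minus strand: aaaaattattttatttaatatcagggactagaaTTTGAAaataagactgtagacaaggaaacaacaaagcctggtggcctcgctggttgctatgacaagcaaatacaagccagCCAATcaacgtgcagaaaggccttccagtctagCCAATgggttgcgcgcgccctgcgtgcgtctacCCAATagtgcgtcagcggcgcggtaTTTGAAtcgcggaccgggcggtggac
Cdc20, chr4:118437314-118437543, minus strand: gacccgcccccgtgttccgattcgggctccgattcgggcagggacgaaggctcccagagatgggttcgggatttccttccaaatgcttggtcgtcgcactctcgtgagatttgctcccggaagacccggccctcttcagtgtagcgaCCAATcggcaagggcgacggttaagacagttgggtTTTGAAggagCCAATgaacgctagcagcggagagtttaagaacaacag
Top2a, chr11:99024160-99024389, minus strand: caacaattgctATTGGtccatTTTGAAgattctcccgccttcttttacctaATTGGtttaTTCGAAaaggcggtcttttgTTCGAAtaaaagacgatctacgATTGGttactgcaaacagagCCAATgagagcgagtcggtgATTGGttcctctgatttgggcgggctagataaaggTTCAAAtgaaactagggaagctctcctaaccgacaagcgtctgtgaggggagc
Mcm3, chr1:20820283-20820512, minus strand: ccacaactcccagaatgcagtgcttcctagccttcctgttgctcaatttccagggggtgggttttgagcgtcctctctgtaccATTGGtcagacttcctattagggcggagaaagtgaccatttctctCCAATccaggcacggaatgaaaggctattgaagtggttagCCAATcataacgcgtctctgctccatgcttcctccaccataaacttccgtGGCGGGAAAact
Mcm6, chr1:128359676-128359905, minus strand: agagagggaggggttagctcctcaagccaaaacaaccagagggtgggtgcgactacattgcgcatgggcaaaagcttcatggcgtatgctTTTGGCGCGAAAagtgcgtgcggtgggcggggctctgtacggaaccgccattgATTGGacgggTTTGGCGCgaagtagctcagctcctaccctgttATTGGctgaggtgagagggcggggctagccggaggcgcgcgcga
Cdc6, chr11:98907951-98908180, plus strand: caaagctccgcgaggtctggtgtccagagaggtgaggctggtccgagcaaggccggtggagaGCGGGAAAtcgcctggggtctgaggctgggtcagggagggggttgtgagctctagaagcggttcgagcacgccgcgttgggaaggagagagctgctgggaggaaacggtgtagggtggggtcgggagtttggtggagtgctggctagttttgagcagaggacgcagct
Cdk4, chr10:127063335-127063564, plus strand: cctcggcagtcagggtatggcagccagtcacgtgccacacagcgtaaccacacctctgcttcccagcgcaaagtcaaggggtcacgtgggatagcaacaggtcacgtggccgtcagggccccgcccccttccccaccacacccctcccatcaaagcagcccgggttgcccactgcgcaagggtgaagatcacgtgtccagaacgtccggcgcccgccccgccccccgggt
In Cdk1 and Ccnb2 the CCAAT boxes lay upstream of a CHR core close to the gene start, with the nearest core at -15 and 4 bases from the start. The Top2a stretch held 4 CHR cores and 5 CCAAT boxes. In Mcm6 the E2F words TTTGGCGC and TTTCGCGC overlapped on opposite strands at -110 and -106, and in Mcm3 the words TTCCCGCC and TTTCCCGC overlapped at 18 and 19. The Cdc6 stretch held a single E2F word and no CCAAT box.

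**Figure D1:**
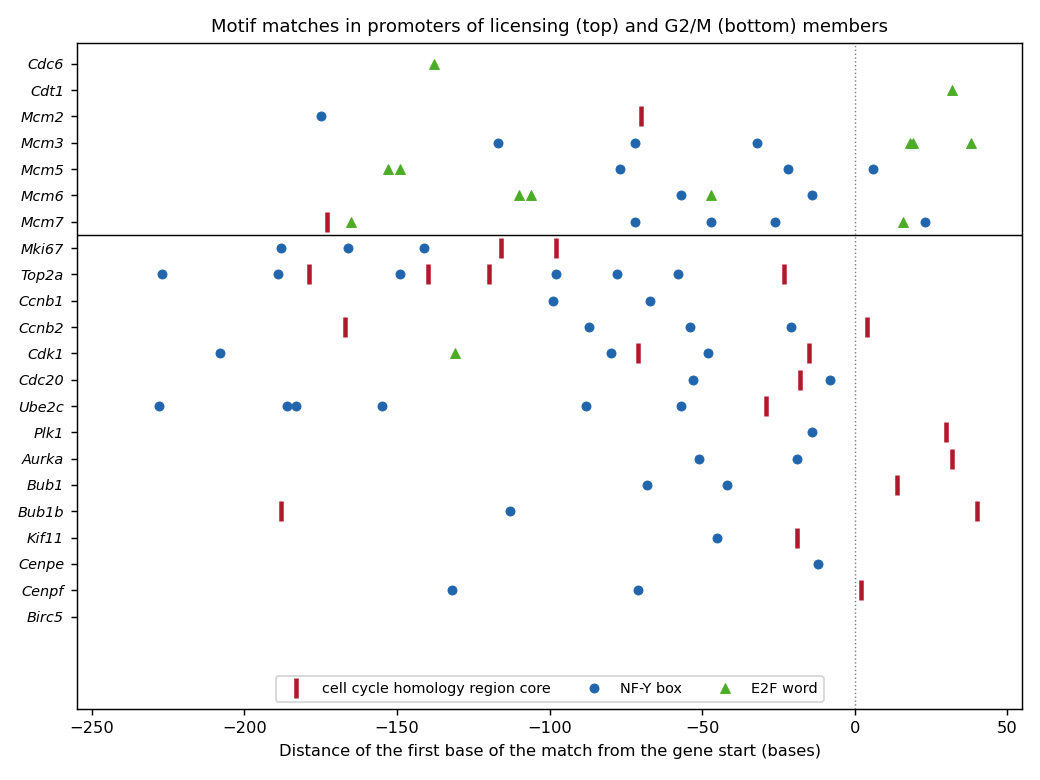
Positions of motif matches in the promoters of 7 licensing genes (top) and 15 G2/M and mitotic genes (bottom); the horizontal axis is the distance in bases of the first base of each match from the gene start, and each mark is 1 match. Mcm7 has 2 promoters, each measured from its own start; CHR cores lie in 12 of the 15 lower rows, E2F words in 6 of the 7 upper rows, and Birc5 has no match.

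The depth was 19958838 to 75795034 counted reads per library, so that 3 reads corresponded to 0.0399 to 0.160 CPM (counts relative to the library total, scaled by TMM factors that ranged from 0.863 to 1.21). All 48 genes passed the filter for testing (over 0.5 CPM in at least 3 libraries), as did 15422 of 27179 genes in all. The basal and general luminal markers followed the labels. The summed CPM of 5 basal markers (Krt5, Krt14, Trp63, Acta2 and Myh11) was 15230.3 to 20999 in the basal libraries, at most 194 in LP and at most 349.7 in ML, and that of 5 luminal markers (Krt8, Krt18, Krt19, Epcam and Cldn3) was 1059 to 1220.4 in basal and 12037 or more in every luminal library. ML 3 carried the most basal RNA of the ML libraries, with Krt5 at 141 CPM against 13.2 and 14.6 CPM in the other two. CommaDβ summed to 161 CPM for the luminal markers and 1509.8 CPM for the basal ones. The basal 1 library carries p53 in its submitted name although its genotype label is wild type. Counts from comparisons with basal are therefore also given without it below. Libraries were made in 3 batches: basal 1, LP 1, ML 1 and the mammospheres in batch 1, basal 2 and 3, LP 2 and ML 2 in batch 2, and LP 3, ML 3 and CommaDβ in batch 3.

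Comparison of the basal with the luminal populations addressed which cells of the resting virgin gland carried cell cycle transcripts. Of the 48 genes, 37 were higher in basal than in LP cells, 2 were lower and 9 were not called (edgeR quasi-likelihood test, adjusted p under 0.05), beside 29.4% of all genes tested called higher and 28.0% called lower. Against ML cells, 40 were higher, 3 lower and 5 not called, beside 28.9% and 29.7% of all genes. The median log2 fold change of the 48 genes was 2.13 against LP and 1.82 against ML, where the median over all genes tested was -0.01 in both. A total of 37 genes were higher in basal in both comparisons and 8 in neither, namely Ccnd1, Ccnd3, Cdk6, Cdkn1b, Cdkn2a, Cdkn2b, E2f2 and Cdt1. In 36 of the 48 genes each basal library lay above all 6 luminal libraries. The share of all genes separated in this way was not counted, here or for the lists below. In these bulk libraries a larger share of cycling cells and more RNA per cycling cell cannot be told apart.

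Without the basal 1 library, 37 genes were higher and 2 lower than in LP, and 37 higher and 2 lower than in ML. Within batch 1, the median log2 difference of the 48 genes was 2.16 for basal 1 against LP 1 and 1.89 for basal 1 against ML 1. Within batch 2 it was 1.89 for the mean of basal 2 and 3 against LP 2 and 1.38 against ML 2 (log2 of CPM + 0.5). All 19 G2/M and mitotic genes were higher in basal in each of these 4 within-batch comparisons. Endothelial markers moved with the basal group: of Pecam1, Cdh5, Kdr and Tek, 3 were called higher in basal than in LP and 2 than in ML. Their summed level lay between 40.5 and 82.9 CPM in basal libraries, between 10.4 and 24.5 in LP and between 7.1 and 34.8 in ML, none of the 4 was at 0 in any library, and the sort had gated out CD31+ (Pecam1) cells. The 8 immune markers together held from 13.1 to 16.3 CPM in basal, against 16.5 to 25.9 in LP libraries and 8.2 to 14.3 in ML libraries, with 1 of the 6 that passed the filter called higher in basal than in both (Cd79a) and 1 lower than in LP (Cd68), while Cd3g was at 0 in several libraries. The part of these cells in the differences was not tested.

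**Figure D2:**
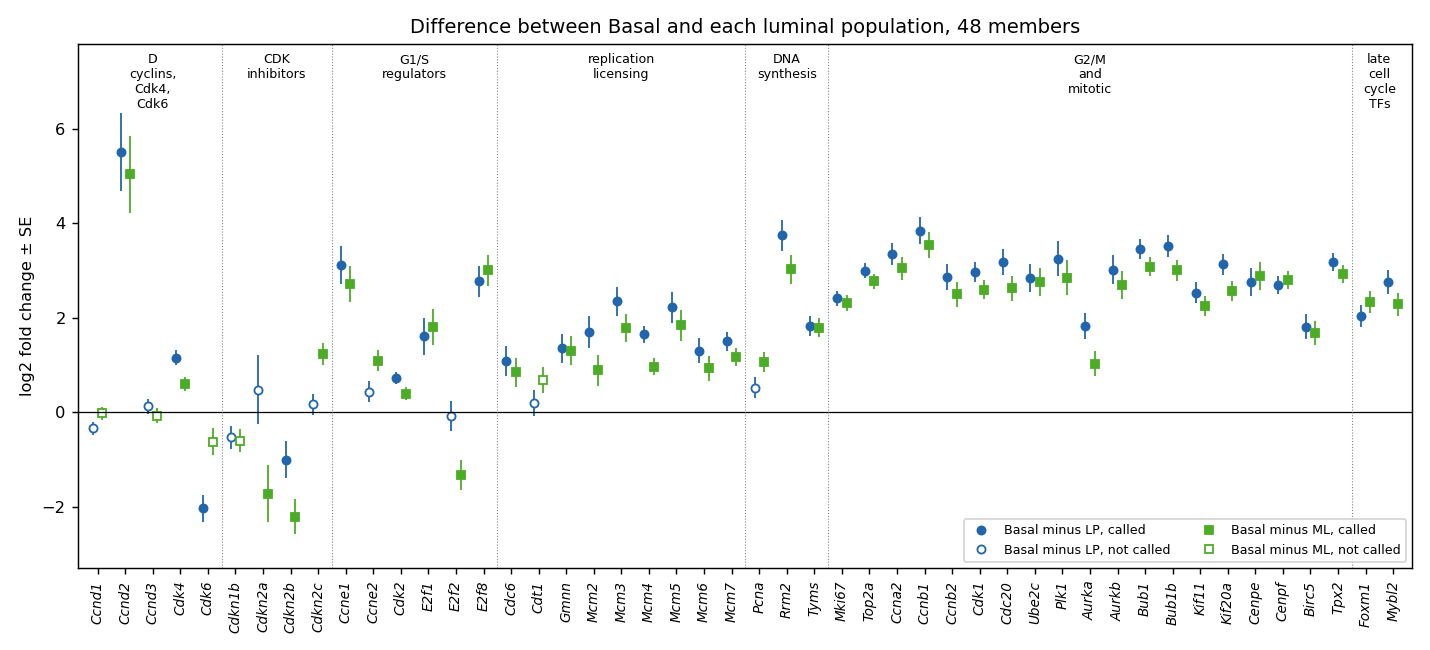
Log2 fold change (vertical axis; bars are the standard error) of each of the 48 genes between basal and LP (circles) and between basal and ML (squares), with filled symbols for genes called at an adjusted p under 0.05. All 19 G2/M and mitotic genes lie above 1 in both comparisons, whereas the D cyclins, kinases and inhibitors run from 5.51 for Ccnd2 against LP to -2.22 for Cdkn2b against ML.

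The D cyclins and their kinases differed from one another. Ccnd2, cyclin D2, was measured at 184, 249 and 132 CPM in the basal libraries, 1.62, 7.0 and 3.36 CPM in LP and 1.84, 2.5 and 13.7 CPM in ML. The basal libraries lay far above every luminal one, and the log2 fold change was 5.51 ± 0.82 (SE, edgeR adjusted p = 0.000267) against LP and 5.04 ± 0.81 (SE, edgeR adjusted p = 0.000384) against ML. The highest luminal value was in ML 3, the ML library with the most Krt5 and with 24.8 CPM of the basal marker Trp63, and the part of basal RNA in it was not tested. Ccnd1, cyclin D1 and the D cyclin required for alveolar development in pregnancy, was measured at 242, 245 and 259 CPM in the basal libraries, 341, 297 and 309 CPM in LP and 237, 286 and 235 CPM in ML. All 3 LP values were above the basal ones, but neither the difference from LP, -0.34 ± 0.13 (SE, edgeR adjusted p = 0.0511), nor that from ML, -0.02 ± 0.13 (SE, edgeR adjusted p = 0.895), was called. The LP difference was called with library batch in the model (-0.385, edgeR adjusted p = 0.0443), with RLE size factors (edgeR adjusted p = 0.0485), with limma voom (adjusted p = 0.0355), with DESeq2 (adjusted p = 0.0154) and without ML 2 (edgeR adjusted p = 0.0441). Ccnd3, cyclin D3, lay in overlapping ranges at 44.6, 46.1 and 33.6 CPM in the basal libraries, 43.1, 38.9 and 32 CPM in LP and 46, 44.5 and 40.3 CPM in ML, and was not called in either comparison.

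Ccnd2 thus made up 31.1% to 46.1% of the summed D cyclin CPM in basal libraries, 0.421% to 2.04% in LP and 0.645% to 4.75% in ML. Per kilobase of counted exon, the mean level in basal cells was 65.5 CPM per kb for Ccnd1, 32.7 for Ccnd2 and 18.3 for Ccnd3, so that Ccnd1 remained the most abundant D cyclin on this scale. In LP the same means were 83.1, 0.692 and 16.8 CPM per kb.

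The kinases moved in opposite directions. Cdk4 was measured at 272, 238 and 187 CPM in the basal libraries, 108, 95.6 and 109.6 CPM in LP and 148, 162 and 153 CPM in ML. Its level was highest in basal and lowest in LP without overlap, with a log2 fold change of 1.16 ± 0.15 (SE, edgeR adjusted p = 0.000112) against LP, 0.59 ± 0.15 (SE, edgeR adjusted p = 0.00656) against ML, and -0.56 ± 0.15 (SE, edgeR adjusted p = 0.0188) for LP against ML. Cdk4 was also the most abundant of the 48 genes per kilobase in basal cells, at 173 CPM per kb. Cdk6, the other partner of the D cyclins, was measured at 5.57, 6.44 and 7.18 CPM in the basal libraries, 32.9, 19.2 and 26.7 CPM in LP and 7.98, 14.1 and 7.2 CPM in ML. It was highest in LP, and the basal level was lower, with a log2 fold change of -2.04 ± 0.29 (SE, edgeR adjusted p = 0.00019). LP exceeded ML by 1.42 ± 0.28 (SE, edgeR adjusted p = 0.00541), while basal and ML did not differ beyond the threshold, at -0.62 ± 0.28 (SE, edgeR adjusted p = 0.0828), a difference called without ML 3 (-0.79, edgeR adjusted p = 0.0419). Ccnd1, Ccnd3 and Cdk4 overlap other protein-coding genes (Lto1, Bysl and, by 2 bases, Tspan31) and Ccnd2 and Cdk6 overlap non-coding ones. The counting is not stated to use strand, so that reads of the shared bases cannot be told apart.

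**Figure D3:**
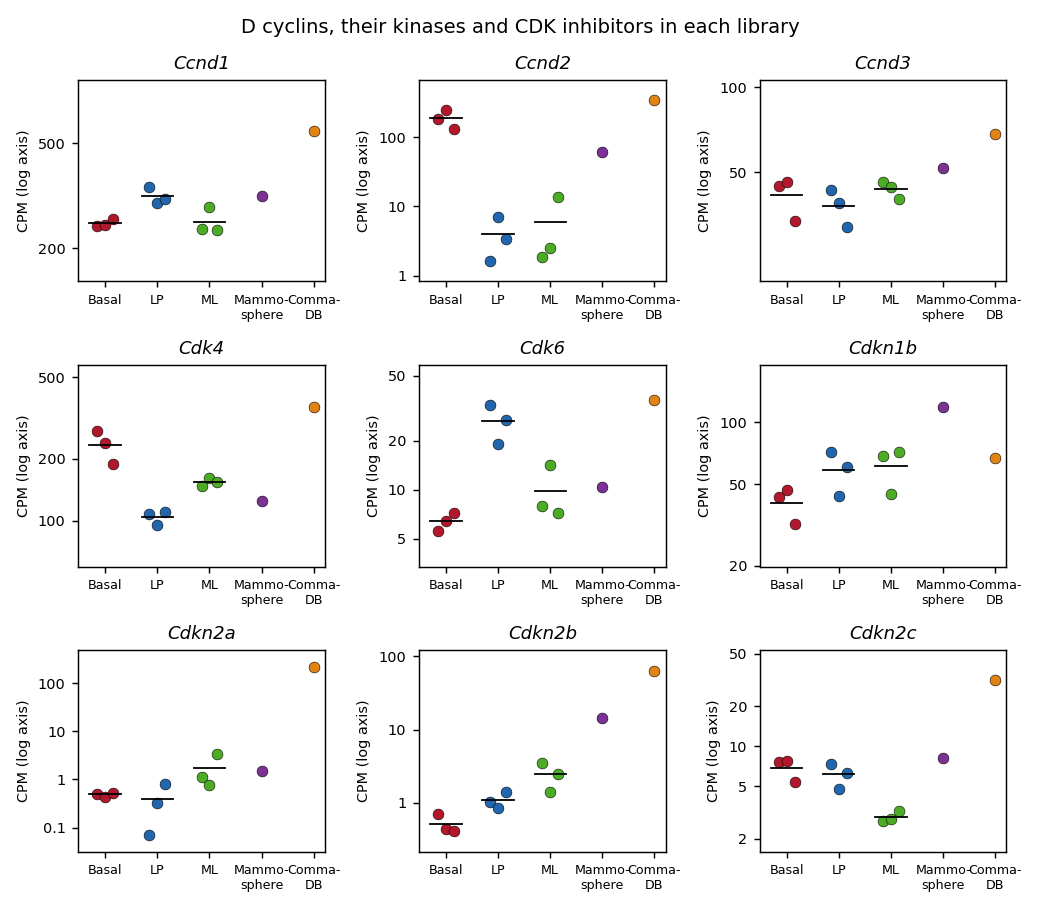
CPM (log axis) of the 3 D cyclins, Cdk4, Cdk6 and 4 CDK inhibitors; each point is 1 library and the line is the mean of 3 libraries. Ccnd2 and Cdk4 are highest among sorted cells in basal and Cdk6 in LP, and Cdkn2a stands at 219.9 CPM in CommaDβ against at most 3.42 CPM in any sorted library.

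Among the 4 CDK inhibitors, none was higher in basal than in LP and 1 was lower, beside 29.4% and 28.0% of all genes. Against ML, 1 was higher and 2 were lower, beside 28.9% and 29.7%. With 4 genes in the list, nothing is drawn from these counts. Cdkn2c (p18INK4c, an inhibitor of Cdk4 and Cdk6) was measured at 7.58, 7.7 and 5.35 CPM in the basal libraries, 7.37, 4.79 and 6.25 CPM in LP and 2.72, 2.84 and 3.24 CPM in ML. It was higher in basal than in ML, by 1.23 ± 0.23 (SE, edgeR adjusted p = 0.000918), and higher in LP than in ML, by 1.07 ± 0.23 (SE, edgeR adjusted p = 0.00694), and basal and LP overlapped. Cdkn2b (p15INK4b, of the same family) was lowest in basal and highest in ML, at 0.713, 0.439 and 0.415 CPM in the basal libraries, 1.02, 0.842 and 1.39 CPM in LP and 3.51, 1.42 and 2.51 CPM in ML. Its log2 fold change was -2.22 ± 0.37 (SE, edgeR adjusted p = 0.000514) for basal against ML, -1.21 ± 0.37 (SE, edgeR adjusted p = 0.0304) for LP against ML and -1.0 ± 0.39 (SE, edgeR adjusted p = 0.0478) for basal against LP. The whole locus of Cdkn2b, 4744 bases, overlaps the non-coding Gm12610, and reads of the shared bases cannot be told apart. The call for basal against LP was lost without a scaling factor, with a higher filter on low counts, with limma voom, with the sorted libraries alone and when any of 5 single libraries was left out.

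Cdkn2a, which encodes p16INK4a and p19ARF from separate promoters that gene counts cannot separate, was barely detected in sorted cells, at 0.509, 0.439 and 0.528 CPM in the basal libraries, 0.0705, 0.318 and 0.801 CPM in LP and 1.13, 0.771 and 3.42 CPM in ML. These values rest on 2 to 75 reads. It was called lower in basal than in ML, at -1.72 ± 0.60 (SE, edgeR adjusted p = 0.0314), and lower in LP than in ML, at -2.21 ± 0.69 (SE, edgeR adjusted p = 0.0346). The highest value was in ML 3, and without that library the fold changes were -0.91 and -1.4 and neither was called. Both calls were also lost when any 1 basal library was left out (edgeR adjusted p = 0.0509 to 0.0848), that against basal with limma voom (adjusted p = 0.0937), and that against LP without LP 1 or LP 2 (edgeR adjusted p = 0.1 and 0.121). With library batch in the model Cdkn2a was called higher in basal than in LP (log2 fold change 1.14, edgeR adjusted p = 0.0364). Cdkn1b (p27Kip1, an inhibitor of Cdk2 complexes) was measured at 43, 46.8 and 31.8 CPM in the basal libraries, 71.5, 43.7 and 60.6 CPM in LP and 68.5, 44.5 and 71.3 CPM in ML, and no sorted comparison of it was called in the fit used here. The difference between basal and ML was close to the threshold: it was called, with basal lower, in 7 alternative fits, among them DESeq2 (adjusted p = 0.0442) and the fit without ML 2 (edgeR adjusted p = 0.0133). That from LP was called without LP 2 or ML 2 (edgeR adjusted p = 0.0274 and 0.0472).

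Among the G1/S regulators, 4 of 6 genes were higher in basal than in LP and 5 of 6 higher than in ML, where the remaining one, E2f2, was lower. Ccne1, cyclin E1, which activates Cdk2 at the start of S phase, was measured at 20, 31.1 and 11.5 CPM in the basal libraries, 2.15, 3.01 and 1.92 CPM in LP and 3.37, 4.01 and 2.05 CPM in ML. The groups did not overlap, and the log2 fold change was 3.12 ± 0.39 (SE, edgeR adjusted p = 8.46e-05) against LP and 2.71 ± 0.38 (SE, edgeR adjusted p = 0.000164) against ML. Ccne2, cyclin E2, differed less, with mean ± SD of 3.19 ± 0.469 CPM in basal, 2.34 ± 0.409 in LP and 1.48 ± 0.113 in ML (n = 3 each), and was called against ML, by 1.1 ± 0.23 (SE, edgeR adjusted p = 0.00196), but against LP only without a scaling factor (edgeR adjusted p = 0.0478). Cdk2, the kinase of both E cyclins and the most abundant gene of the list per kilobase, was measured at 48.6, 50.6 and 39 CPM in the basal libraries, 27.2, 27.5 and 29.1 CPM in LP and 33.7, 33.3 and 38.2 CPM in ML. Its differences were small beside those of Ccne1, at 0.72 ± 0.13 (SE, edgeR adjusted p = 0.000982) against LP and 0.40 ± 0.13 (SE, edgeR adjusted p = 0.0253) against ML, and the ML call was lost when basal 1, basal 2, ML 1 or ML 2 was left out (edgeR adjusted p = 0.0755 to 0.0788), without a scaling factor (0.0543) and without the filter on low counts (0.0513). The whole Cdk2 locus, 7114 bases, overlaps the protein-coding gene Pmel, and Ccne2 shares 5622 bases with Ints8, so that reads of shared bases cannot be told apart.

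The 3 E2F genes behaved differently. E2f8, an atypical repressor of the family, was measured at 23.7, 19.7 and 31.3 CPM in the basal libraries, 4.37, 3.58 and 2.94 CPM in LP and 2.91, 4.4 and 1.78 CPM in ML, which gave a log2 fold change of 2.77 ± 0.32 (SE, edgeR adjusted p = 4.81e-05) against LP and 3.0 ± 0.32 (SE, edgeR adjusted p = 2.53e-05) against ML. E2f1, an activator, was higher in basal by 1.61 ± 0.39 (SE, edgeR adjusted p = 0.00512) than in LP and by 1.81 ± 0.39 (SE, edgeR adjusted p = 0.00249) than in ML, from 24.1, 21 and 10.9 CPM in basal and 2.83 to 7.83 CPM in the luminal libraries. E2f2, also an activator, was highest in ML, at 1.85, 2.07 and 0.829 CPM in the basal libraries, 1.9, 1.65 and 1.44 CPM in LP and 4.21, 3.81 and 3.87 CPM in ML. The basal level was lower than the ML level, with a log2 fold change of -1.32 ± 0.31 (SE, edgeR adjusted p = 0.00444), LP was lower than ML at -1.25 ± 0.32 (SE, edgeR adjusted p = 0.0159), and basal and LP were not called different.

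Licensing factors load the MCM helicase on replication origins in G1. Of the 9, 8 were higher in basal than in LP (median log2 fold change of the list 1.5) and 8 higher than in ML (0.97), and the same gene was left out of both, Cdt1, the loader of the helicase. Cdt1 was measured at 34.1, 27.4 and 23.5 CPM in the basal libraries, 29.2, 26.2 and 18.6 CPM in LP and 17.2, 24.5 and 11.1 CPM in ML, with differences of 0.20 ± 0.28 (SE, edgeR adjusted p = 0.568) and 0.68 ± 0.28 (SE, edgeR adjusted p = 0.0585). The difference from ML was called with DESeq2 (adjusted p = 0.0346) and without ML 2 (log2 fold change 1.0, edgeR adjusted p = 0.01). The 6 helicase subunits, Mcm2 to Mcm7, were all called in both comparisons, with log2 fold changes of 1.3 (Mcm6) to 2.35 (Mcm3) against LP and 0.89 (Mcm2) to 1.84 (Mcm5) against ML. Mcm3 was measured at 98.7, 103 and 54.2 CPM in the basal libraries, 19.2, 17.9 and 13 CPM in LP and 28.1, 30.3 and 15.9 CPM in ML. Its basal values were above all luminal ones, with a log2 fold change of 2.35 ± 0.31 (SE, edgeR adjusted p = 0.000105) against LP and 1.78 ± 0.30 (SE, edgeR adjusted p = 0.000533) against ML. Mcm6, the most abundant of the list per kilobase, was measured at 105, 117 and 60.9 CPM in the basal libraries, 42.7, 37 and 35.2 CPM in LP and 57.2, 57.2 and 34 CPM in ML. The lowest basal value, in basal 3, was just above the highest ML value, and the fold change was 1.3 ± 0.26 (SE, edgeR adjusted p = 0.00191) against LP and 0.93 ± 0.26 (SE, edgeR adjusted p = 0.0113) against ML. Cdc6, the origin factor that recruits Cdt1, and Gmnn, geminin, which inhibits Cdt1 after S phase begins, were higher in basal than in LP by 1.09 ± 0.31 (SE, edgeR adjusted p = 0.0132) and 1.36 ± 0.31 (SE, edgeR adjusted p = 0.0037), and their log2 fold changes against ML were 0.84 ± 0.31 and 1.3 ± 0.31 (SE). Calls near the threshold were lost in part: Cdc6 against LP without basal 2 (edgeR adjusted p = 0.0511), Cdc6 against ML without basal 1, basal 2, ML 1 or ML 3 (0.0608 to 0.12), and Mcm2 against ML without basal 1, basal 2, ML 2 or ML 3 (0.0666 to 0.151) and with limma voom (adjusted p = 0.0689).

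DNA synthesis genes differed in the size of their change. Rrm2, the S phase subunit of ribonucleotide reductase, was measured at 82.8, 78.2 and 39.9 CPM in the basal libraries, 4.27, 6.12 and 4.43 CPM in LP and 9.36, 9.5 and 5.61 CPM in ML. The groups were far apart, with a log2 fold change of 3.75 ± 0.33 (SE, edgeR adjusted p = 7.29e-06) against LP and 3.03 ± 0.31 (SE, edgeR adjusted p = 2.01e-05) against ML. Pcna, the sliding clamp of replication and repair and the most abundant of the 3 per kilobase, was measured at 121, 131 and 79.7 CPM in the basal libraries, 83.5, 84.8 and 62.6 CPM in LP and 52.7, 63.4 and 42.4 CPM in ML. Basal 3 fell below the 2 highest LP values, the difference from LP was not called at 0.52 ± 0.22 (SE, edgeR adjusted p = 0.0631), and that from ML was 1.06 ± 0.22 (SE, edgeR adjusted p = 0.00196). Pcna was called higher than in LP without basal 3 (edgeR adjusted p = 0.0132) and without a scaling factor (edgeR adjusted p = 0.0192). Tyms, thymidylate synthase, was higher in basal by 1.82 ± 0.21 (SE, edgeR adjusted p = 4.37e-05) than in LP and 1.79 ± 0.21 (SE, edgeR adjusted p = 4.22e-05) than in ML.

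The G2/M and mitotic genes moved most uniformly: all 19 were higher in basal than in LP and all 19 higher than in ML, and each basal library lay above all 6 luminal libraries in each of them. The median log2 fold change was 3.0 against LP and 2.77 against ML. Ccnb1, cyclin B1 and the activator of Cdk1 at mitotic entry, differed most, at 17.8, 15.6 and 11 CPM in the basal libraries, 1.3, 0.693 and 1.17 CPM in LP and 1.27, 1.21 and 1.37 CPM in ML, and its log2 fold change was 3.85 ± 0.29 (SE, edgeR adjusted p = 2.8e-06) against LP and 3.54 ± 0.28 (SE, edgeR adjusted p = 3.18e-06) against ML. Top2a, topoisomerase IIα, which untangles replicated chromosomes, had the highest level of the list per kilobase and was measured at 257, 207 and 212 CPM in the basal libraries, 30.4, 27.4 and 26.7 CPM in LP and 35.2, 36.2 and 27.4 CPM in ML. Its fold change was 3.0 ± 0.16 (SE, edgeR adjusted p = 4.32e-07) against LP and 2.77 ± 0.16 (SE, edgeR adjusted p = 4.52e-07) against ML. Mki67, which encodes the proliferation antigen Ki67, was measured at 244, 176 and 191 CPM in the basal libraries, 43.1, 32.2 and 39.8 CPM in LP and 43.8, 40.7 and 38.1 CPM in ML. The luminal libraries held between 32.2 and 43.8 CPM, and the log2 fold change was 2.41 ± 0.17 (SE, edgeR adjusted p = 1.86e-06) against LP and 2.32 ± 0.17 (SE, edgeR adjusted p = 1.95e-06) against ML.

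The other 16 mitotic genes fell between log2 fold changes of 1.81 (Birc5, survivin) and 3.52 (Bub1b) against LP, and between 1.03 (Aurka) and 3.09 (Bub1) against ML. Bub1 and Bub1b, kinases of the spindle assembly checkpoint, were higher than in LP by 3.46 ± 0.21 and 3.52 ± 0.23 (SE). The cyclins Ccna2 and Ccnb2 and their kinase Cdk1 were higher than in LP by 3.35 ± 0.24, 2.86 ± 0.27 and 2.97 ± 0.21. Cdc20 and Ube2c, which drive the destruction of mitotic cyclins through the anaphase-promoting complex, were higher by 3.19 ± 0.27 and 2.85 ± 0.30. The mitotic kinases were spread more widely, at 3.26 ± 0.38 for Plk1 and 3.02 ± 0.30 for Aurkb, the kinase of the chromosomal passenger complex with Birc5, but 1.83 ± 0.28 for Aurka, the centrosomal kinase, against LP. Tpx2, the spindle partner of Aurka, was higher by 3.17 ± 0.19. The kinesins Kif11, Kif20a and Cenpe, which separate spindle poles, act in cytokinesis and align chromosomes, were higher by 2.53 ± 0.22, 3.14 ± 0.22 and 2.76 ± 0.29, and the kinetochore protein Cenpf by 2.69 ± 0.19. Kif20a overlaps Cdc23 over 4930 bases, and reads from shared bases cannot be told apart. Of the late transcription factors, Foxm1 was measured at 53.8, 53.1 and 36.5 CPM in the basal libraries, 11.5, 12.8 and 10.6 CPM in LP and 8.77, 12.5 and 7.02 CPM in ML, and its log2 fold change was 2.04 ± 0.23 (SE, edgeR adjusted p = 4e-05) against LP and 2.33 ± 0.23 (SE, edgeR adjusted p = 1.48e-05) against ML. Mybl2 was higher by 2.76 ± 0.25 (SE, edgeR adjusted p = 8.44e-06) and 2.29 ± 0.24 (SE, edgeR adjusted p = 2.07e-05), with the basal libraries at 9.33 to 13.9 CPM and the luminal ones at 1.70 to 3.11 CPM.

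**Figure D4:**
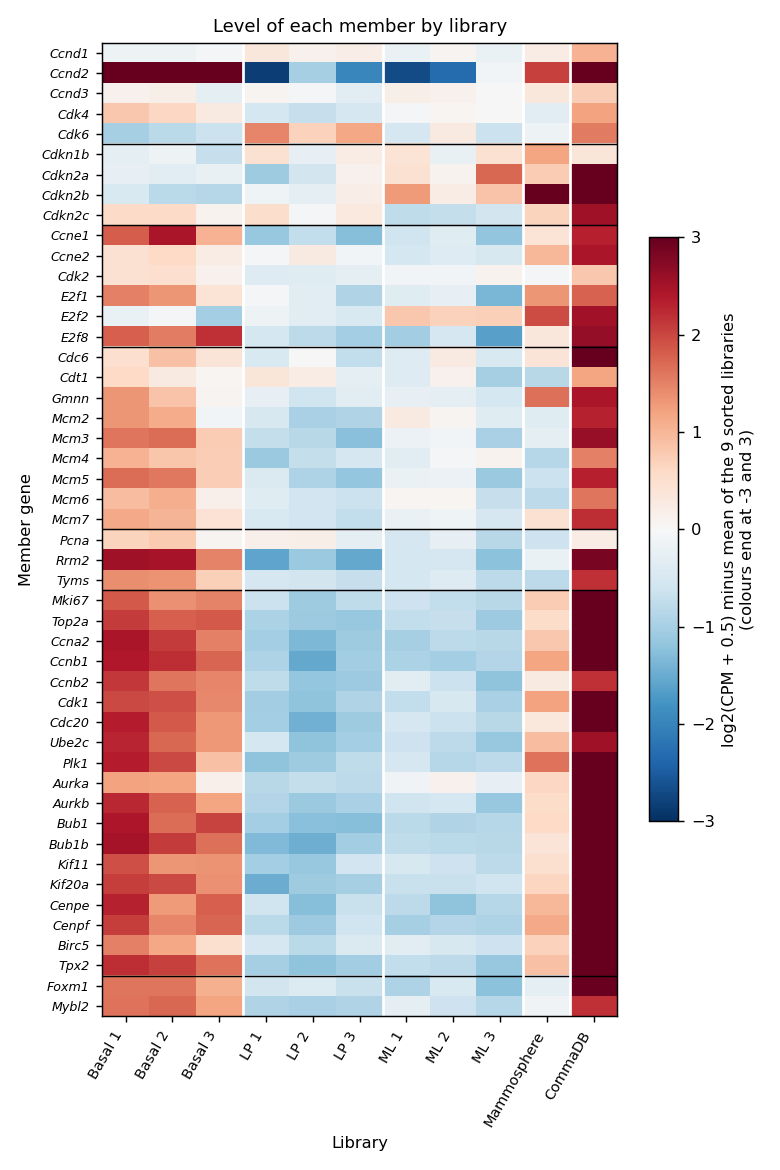
Level of each of the 48 genes (rows, in the order of the lists) in each of the 11 libraries (columns), as log2(CPM + 0.5) minus the mean over the 9 sorted libraries. Red is above and blue below that mean; most S phase and mitotic rows are red in the basal columns and in CommaDβ, and pale in the mammosphere column.

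The basal libraries were not uniform among themselves. Basal 3 was the lowest of the 3 in 38 of the 48 genes, in all 9 licensing genes and all 3 DNA synthesis genes, but in 13 of the 19 mitotic genes. The share of all genes lowest in basal 3 was not counted. The summed CPM of the licensing genes was 629.6, 596 and 372 in basal 1 to 3, and that of the mitotic genes was 1292, 968 and 883. Every one of these sums was above the highest luminal one, which was 265 for licensing and 183 for mitotic genes. The ratio of the mitotic to the licensing sum was 2.05, 1.62 and 2.38 in basal, 0.826, 0.74 and 0.956 in LP and 0.744, 0.669 and 0.818 in ML, so that all basal ratios were above all luminal ones. The ratio was 2.44 in the mammosphere library and 2.75 in CommaDβ. It compares sums of 19 and 9 genes of unequal length and is read only between libraries.

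**Figure D5:**
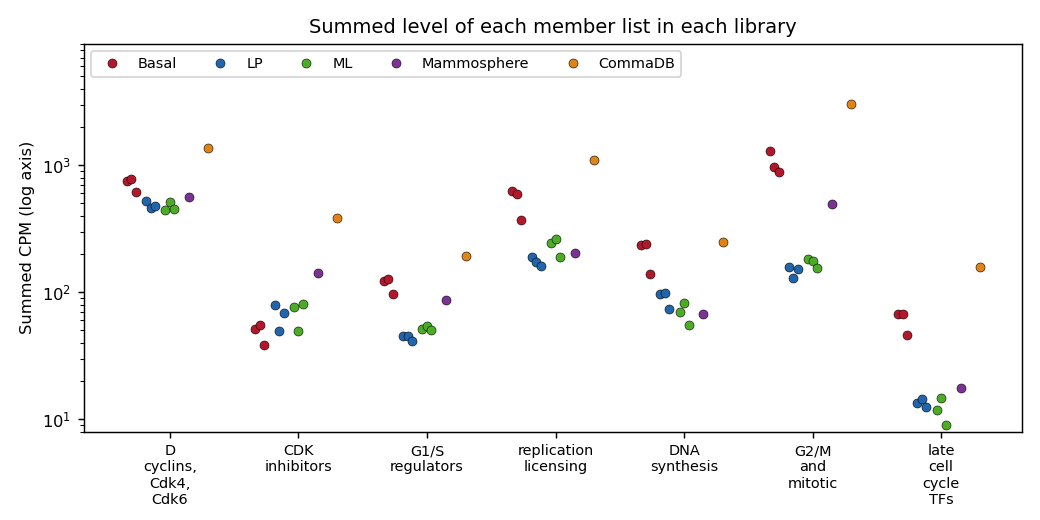
Summed CPM (log axis) of each of the 7 gene lists in each library, 1 point per library. For the G2/M and mitotic list, the basal libraries lie at 883 to 1292 CPM, the luminal ones at 128 to 183 CPM, the mammosphere library at 496 CPM and CommaDβ at 3028 CPM.

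Pathway genes outside the 48 were counted from lists of the remaining G1, replication and mitotic genes. Among 51 other mitotic genes, 49 were higher in basal than in LP and 49 higher than in ML, with 1 and 2 lower. Kif18b, a mitotic kinesin, was measured at 21.8, 19.5 and 11.6 CPM in the basal libraries, 1.59, 0.936 and 1.6 CPM in LP and 1.87, 1.67 and 2.1 CPM in ML, with a log2 fold change of 3.72 ± 0.31 (SE, edgeR adjusted p = 5.32e-06) against LP. The next largest against LP were Nuf2, of the kinetochore, at 3.36 ± 0.21 and Aspm, of the spindle poles, at 3.28 ± 0.22, and against ML the checkpoint kinase Ttk at 3.24 ± 0.31 and the Cdk1 phosphatase Cdc25c at 3.23 ± 0.36 (SE). Among 38 other replication genes, 31 were higher in basal than in LP and 30 higher than in ML, and none was lower. The 23 other G1 and restriction point genes were mixed, with 9 higher and 6 lower than in LP, beside 29.4% and 28.0% of all genes, and 10 higher and 4 lower than in ML, beside 28.9% and 29.7%.

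The largest decrease in that last list was in Rb1, the retinoblastoma gene, at 44.2, 38.8 and 52.7 CPM in the basal libraries, 649, 548 and 701 CPM in LP and 107, 168 and 116 CPM in ML. The 3 populations did not overlap, and Rb1 was lower in basal than in LP with a log2 fold change of -3.81 ± 0.22 (SE, edgeR adjusted p = 7.13e-07), lower than in ML at -1.52 ± 0.20 (SE, edgeR adjusted p = 0.000115), and higher in LP than in ML at 2.28 ± 0.21 (SE, edgeR adjusted p = 0.000701). Wee1, the kinase that holds Cdk1 inactive, was the mitotic gene lower in basal than in LP, at 51.1, 37.3 and 52.5 CPM in the basal libraries, 185, 85.9 and 240.0 CPM in LP and 105, 70.9 and 118 CPM in ML, with -1.86 ± 0.34 (SE, edgeR adjusted p = 0.00105) against LP and -1.06 ± 0.34 (SE, edgeR adjusted p = 0.0201) against ML, a call lost without basal 2, ML 1 or ML 3. Ccng1, cyclin G1, was lower in basal, at -0.88 ± 0.13 (SE, edgeR adjusted p = 0.000241) against LP and -1.01 ± 0.13 (SE, edgeR adjusted p = 8.49e-05) against ML.

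The 2 luminal populations were compared to ask whether progenitors and mature cells differed in these genes. Of the 48 genes, 2 were higher in LP than in ML (Cdk6 and Cdkn2c), 5 were lower (Cdk4, Cdkn2a, Cdkn2b, E2f2 and Mcm4) and 41 were not called, beside 14.3% of all genes called higher and 17.5% lower. No G2/M or mitotic, DNA synthesis or late transcription factor gene was called. The median log2 fold change was -0.31 for the 48 genes and also for the 19 mitotic genes, against -0.01 over all genes. It was positive in 2 of the 19 mitotic genes. The direction varied by batch: 4, 0 and 11 of the 19 were higher in LP within batches 1, 2 and 3. In the fit over all libraries the log2 difference of Mki67 was -0.09 ± 0.16 and that of Top2a -0.23 ± 0.15 (SE). Mcm4, a helicase subunit, was measured at 27.7, 36.3 and 42.1 CPM in LP and 47.4, 58.5 and 64.6 CPM in ML, and the log2 fold change was -0.69 ± 0.18 (SE, edgeR adjusted p = 0.0169). Calls in this comparison rested on single libraries. Mcm4 was not called without LP 1, LP 2 or ML 3, Cdk4 without LP 1, LP 2 or ML 1, E2f2 without LP 2 or ML 1, and Cdkn2b without LP 1, LP 2, ML 1 or ML 3 (edgeR adjusted p = 0.0506 to 0.131) or with limma voom (adjusted p = 0.0744), while Cdk6 and Cdkn2c stayed called in each of these fits. Between 0 and 9 genes were called lower when 1 library was left out: none without LP 2, 1 without LP 1, 2 without ML 1 or without ML 3, and 9 without basal 3. Of all genes, 11.4% were called lower without LP 2 and 17.9% without basal 3. Basal 3 is in neither group and enters through the shared estimate of spread and the scaling factors. Without a scaling factor, a setting that moved the median of all genes by -0.17 in this comparison and by 0.15 for basal against LP, 11 of the 48 were lower in LP, beside 24.6% of all genes.

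Outside the 48, 1 of 38 other replication genes was higher in LP than in ML and 4 were lower. Of 51 other mitotic genes, 6 were lower and none higher. Beside these counts, 14.3% of all genes were called higher and 17.5% lower. Kif2c, a kinesin that depolymerises microtubules, was measured at 2.12, 2.41 and 2.62 CPM in LP and 9.59, 7.28 and 8.11 CPM in ML, with a log2 fold change of -1.81 ± 0.26 (SE, edgeR adjusted p = 0.00142). Mad2l1, of the spindle checkpoint, was lower in LP at -1.26 ± 0.26 (SE, edgeR adjusted p = 0.00586) and Cdkn2d, p19INK4d, at -1.04 ± 0.32 (SE, edgeR adjusted p = 0.031). Of the 23 other G1 genes, 4 were higher in LP than in ML and 3 lower, beside the same shares of all genes. The largest differences among pathway genes higher in LP were, after Rb1, those of Cdkn1c, p57Kip2, at 0.81 ± 0.22 (SE, edgeR adjusted p = 0.0207) and Fen1, the flap endonuclease, at 0.80 ± 0.27 (SE, edgeR adjusted p = 0.0485). The calls of Cdkn1c, Cdkn2d and Fen1 were lost when single luminal libraries were left out (edgeR adjusted p up to 0.156), and those of Cdkn2d and Fen1 also with limma voom. That of Fen1 was further lost without basal 1 or basal 2 (edgeR adjusted p = 0.0698 and 0.0502), without a scaling factor (0.0944) and without the filter on low counts (0.0529).

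The mammosphere library was set beside the freshly sorted basal cells from which such cultures start. With 1 library there was no test, and a gene is counted where its log2 CPM (prior count 2) differed from the basal mean by more than 1. By that count 4 of the 48 genes were over 2-fold higher, 24 over 2-fold lower and 20 within 2-fold, beside 19.7% of all genes higher and 20.0% lower. The median log2 difference was -1.02 for the 48 genes and -0.01 over all genes. Without a scaling factor 17 were over 2-fold lower, with a median of -0.79. Without basal 1 in the reference, 5 were over 2-fold higher and 20 lower, beside 19.8% and 20.3% of all genes. Against basal 1 alone, the basal library of the same batch and the one with p53 in its submitted name, 4 genes were higher and 29 lower.

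DNA synthesis genes had the lowest median of the lists, at 0.242 of the basal mean CPM, followed by the late transcription factors at 0.293 and the licensing genes at 0.411. DNA synthesis genes were all over 2-fold lower, with Rrm2 at 12, Pcna at 48.5 and Tyms at 6.81 CPM, and 6 of the 9 licensing genes were, among them Mcm5 at 23.3 CPM (log2 difference -2.0), Mcm4 at 33.1 (-1.74) and Mcm3 at 25.9 (-1.66). Foxm1, at 14.1 CPM (-1.74), and Mybl2, at 3.52 CPM (-1.75), were also over 2-fold lower, and both lay above all luminal and below all basal libraries. Mcm6 and Tyms were below all 9 sorted libraries, and 5 of the 9 licensing genes lay within the range of the luminal libraries. Mitotic genes lay in between: all 19 were above all 6 luminal libraries, 16 of these were also below all 3 basal ones, and 10 were over 2-fold lower than the basal mean. The shares of all genes in these positions relative to the luminal and basal libraries were not counted, so the counts are not read as particular to these lists. Mki67 was at 115 CPM, Top2a at 86.8 and Cdk1 at 25.5, or 0.565, 0.385 and 0.659 of the basal mean, while Plk1, at 11.6 CPM, stood at 0.841 of it. Against LP 1 of its own batch, all 19 mitotic genes were higher in the mammosphere library, with a median log2 difference of 1.60, and the licensing genes had a median of 0.25.

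The genes above all 9 sorted libraries were 7 in number, beside 19.8% of all genes, and 3 of them were CDK inhibitors. Cdkn2b reached 14.4 CPM (638 reads), a log2 difference of 4.7 from the basal mean. Cdkn1b reached 118 CPM (1.56) and Cdkn2c 8.19 CPM (0.27). The other 4 were Ccnd3 at 51.7, Ccne2 at 4.98, E2f2 at 9.9 and Gmnn at 15.3 CPM. E2f1, at 21.2 CPM, was within the basal range, whereas Ccne1, at 7.19 CPM, and E2f8, at 8.32, were below it and above all luminal libraries. Ccnd2 was at 61.9 CPM, below the basal and above the luminal values, Ccnd1 at 315, Cdk4 at 125 and Cdk6 at 10.4 CPM. Rb1, at 178 CPM, was above all basal libraries. The summed basal markers of the mammosphere library were 3366 CPM and the luminal ones 2860 CPM, both between the sorted groups. Its 8 immune markers summed to 42.0 CPM, above all sorted libraries, with Cd68 and Lyz2 at 23.6 and 11.1 CPM and Cd3g at 0. Of the 6 immune markers that passed the filter, 4 were over 2-fold higher than the basal mean and 2 over 2-fold lower. The 4 endothelial markers summed to 10.5 CPM. The 5 fibroblast markers, with Col1a1 and Col3a1 at 838 and 680.2 CPM, summed to 1725 CPM against 481 to 708 in basal. The part of such cells was not tested.

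CommaDβ cells, a line in continuous culture, carried the most cell cycle RNA of the 11 libraries. Again with 1 library and no test, 31 of the 48 genes were over 2-fold higher than the basal mean, none was over 2-fold lower and 17 were within 2-fold, beside 16.9% of all genes higher and 24.8% lower. The median log2 difference was 1.36, against 0.02 over all genes. Without a scaling factor 40 genes were over 2-fold higher, beside 24.7% of all genes. Without basal 1 in the reference 34 genes were, beside 17.5% of all genes. In 45 genes CommaDβ lay above all 9 sorted libraries, beside 26.7% of all genes, and the exceptions were Cdkn1b (66.8 CPM), Ccne1 (28.7) and Pcna (87.9). Strain, passage in culture, pregnancy stage of origin and batch differ from the basal libraries together and cannot be told apart.

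The G2/M and mitotic genes stood farthest above the basal mean among the lists of cycle machinery, with 17 of 19 over 2-fold and a median of 3.06 times the basal mean CPM. Mki67 was at 565 CPM, Top2a at 574, Ccna2 at 192, Cdk1 at 146 and Plk1 at 76.4 CPM. Plk1 differed by 2.6, Birc5 by 2.49 and Aurka by 2.42 on the log2 scale, and Ccnb2 and Ube2c, at 0.47 and 0.78, were the 2 within 2-fold. Licensing genes stood at a median of 2.33 times the basal mean, led by Cdc6 at 28.2 CPM (2.55), and DNA synthesis genes at 1.52 times, with Pcna below the basal mean at a log2 difference of -0.30. Foxm1 was at 137 and Mybl2 at 19.5 CPM.

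Of the D cyclins, CommaDβ held 555 CPM of Ccnd1, 344 of Ccnd2 and 68.3 of Ccnd3, with Ccnd2 at 35.6% of their sum, within the basal range. It held 358 CPM of Cdk4 and 35.3 CPM of Cdk6, both above all sorted libraries. The INK4 inhibitors were also high. Cdkn2a stood at 219.9 CPM (6460 reads), a log2 difference of 8.68 from the basal mean. Cdkn2b stood at 63.1 CPM (6.83) and Cdkn2c at 31.4 CPM (2.2), whereas Cdkn1b differed by 0.74. Per kilobase, Cdkn2a at 194 CPM per kb came next to Cdk4, at 266, among the 48 genes in CommaDβ, whereas its mean in basal cells was 0.433. Rb1 was at 33.3 CPM, below all 9 sorted libraries. The 4 endothelial markers of CommaDβ summed to 0.953 CPM and the 8 immune markers to 3.51 CPM, with Cd3e and Cd3g at 0. Its 5 fibroblast markers summed to 2652 CPM, above the mammosphere library and every sorted library, which held at most 1121 CPM. They did not move together, as 3 were over 2-fold higher than the basal mean and 2 over 2-fold lower. The part of these levels in the differences was not tested.

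Set side by side, the mammosphere and CommaDβ libraries shared the 3 basal libraries as their reference. In 47 of the 48 genes the CPM was higher in CommaDβ than in the mammospheres, and the exception was Cdkn1b. In 40 of them the difference was over 2-fold on the log2 CPM scale. Shares of all genes were not counted for this pair, so these counts are not read as particular to the 48 genes. The inhibitors Cdkn2b and Cdkn2c and the genes Ccnd3, Ccne2, E2f2 and Gmnn were above all 9 sorted libraries in both. As CommaDβ lay above all 9 in 45 of the 48 genes, such sharing was nearly fixed in advance and nothing is drawn from it. Pcna was over 2-fold lower than basal in the mammospheres (-1.16) and within 2-fold in CommaDβ (-0.30).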

How the data were processed

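The authors aligned single-end reads to mm10 with Rsubread and assigned them to genes with featureCounts, per the labels and the methods. The deposited values are raw counts per Entrez gene, 1 table per library, not normalized, and no pooling is stated. Submitters' processing notes also name CASAVA 1.8.0, edgeR 3.6.2 and limma 3.20.5. Entrez identifiers were matched to RefSeq symbols, and 1904 of 27179 genes had none.

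The counts were tested with edgeR 4.0.16 under R 4.3.3, on genes over 0.5 CPM in at least 3 libraries, with TMM scaling, 1 model with 5 sample type means, the quasi-likelihood test and Benjamini-Hochberg adjustment over the 15422 genes tested, called at an adjusted p under 0.05. CPM values were TMM-scaled. The study fitted limma voom, which was run as an alternative (limma 3.58.1), as was DESeq2 1.42.0. The single mammosphere and CommaDβ libraries add no residual and were set beside the basal mean without a test. The fit was tested on simulated data. The labels call the 3 libraries of a population independent samples only in the series text, and whether libraries share animals is not given, so p-values measure the spread between these libraries. Precision is limited by 3 libraries per sorted group. The 48 genes and the other gene lists were chosen with earlier results of these data known. Values for every library are given for D cyclins, CDK inhibitors and, per list, the called genes with the largest change and highest level. Other pathway genes are named by the 3 largest called changes in each direction.

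Library batch, given in the labels, pairs samples across populations. Deviations from the group means correlated at 0.32, 0.31 and 0.53 for LP and ML of batches 1, 2 and 3, at 0.24 and 0.20 for basal 1 with LP 1 and ML 1, and from -0.12 to 0.29 for the batch 2 basal libraries with LP 2 and ML 2. Promoter motifs were counted as exact letters, with no test. One immune marker fixed at the start is not reported here and was left out of the immune sums.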

Additional observations from a re-analysis of the deposited data

How the results depend on the processing

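The counts of the 48 genes called higher in basal than in LP and than in ML stayed within 1.5 times their main values under every alternative, at 36 to 38 and 37 to 40 when 1 library was left out. The count lower than in LP fell to 1 without a scaling factor, with the filter at over 2 CPM and with the 9 sorted libraries alone, and ranged from 1 to 4 when 1 library was left out. The gene lost was Cdkn2b in each fit that gave 1. For LP against ML, DESeq2 called 4 genes higher, beside 17.5% of all genes, and the fit without a scaling factor called 11 lower, beside 24.6%. Leaving out 1 library gave 2 to 4 higher and 0 to 9 lower, the latter beside 10.8% to 17.9% of all genes. With library batch as a replicate block, 38 genes were higher and 3 lower than in LP, 40 and 3 against ML, and 2 and 5 for LP against ML. The block changed no other call than those of Ccnd1 and Cdkn2a against LP. No called difference of the 48 genes changed sign. Among uncalled differences, E2f2 in basal against LP was 0.0835 without a scaling factor and from -0.326 to 0.222 when 1 library was left out, Cdt1 was -0.0128 with the block, Cdkn2c ran from -0.00142 to 0.312, Ccnd1 against ML from -0.0737 to 0.0763, Ccnd3 against ML from -0.15 to 0.0663, and Mki67 in LP against ML from -0.165 to 0.0426. In LP against ML, 12 uncalled differences changed sign in all, the largest that of Ccnd2, which was -0.48 in the fit used here, 0.114 with limma voom and 0.909 without ML 3. In the mammosphere library, 20 to 27 genes were over 2-fold lower without 1 basal library, and in CommaDβ 27 to 34 were over 2-fold higher. Without a scaling factor these counts were 17 and 40, and against basal 1 alone 29 were lower in the mammosphere library. The cause of these changes was not tested. Depth limits Cdkn2a in the sorted libraries, where it rests on 2 to 75 reads.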
